A study of Cricetulus griseus with 3 samples.

Results

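The genes described here build the machinery that sorts membrane cargo between the trans-Golgi network, endosomes, lysosomes and the cell surface. They were taken by name from the array's annotation: sorting nexins (Snx), vacuolar protein sorting genes (Vps), charged multivesicular body proteins (Chmp), subunits of clathrin, of the AP adaptors and of the COPI coat, and syntaxins (Stx), VAMPs, SNAP-25 relatives, synaptotagmins (Syt) and synaptotagmin-like proteins (Sytl). The rule used names only and no measured value. It found 148 spots of 100 genes, out of 16928 tested spots and 8146 genes with a single name.

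In this machinery, a coat (clathrin with an AP adaptor, or COPI) gathers cargo and bends the membrane into a vesicle, retromer and the sorting nexins draw cargo out of endosomes in tubules, and the ESCRT complexes push cargo inward into multivesicular bodies. Tethers such as HOPS, CORVET, GARP and EARP hold a vesicle at its target, and SNARE proteins of both membranes zip together to fuse them. Synaptotagmins sense calcium and set the time of fusion in regulated secretion. γ-Secretase and its substrates travel along these same endosomal routes.

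S-1 cells are a Chinese hamster ovary (CHO) line that stably over-expresses PS1, NCT-GST, APH1-a2-HA and Flag-PEN2, the subunits of γ-secretase. The paper also marks APP, the amyloid precursor protein, as over-expressed in S-1 cells. The line was derived from the parental CHO cells through an intermediate CHO line. S-1 cells were grown with G418, puromycin, zeocin, hygromycin and blasticidin and were given 0.05% DMSO for 24 h. The cells they were set against were untransfected CHO cells of the same parental line, grown without these drugs and exposed for 24 h to DAPT, a γ-secretase inhibitor, at 10 µM in 0.05% DMSO. RNA of both lines, from biological triplicates, was amplified and hybridised together on 3 mouse cDNA arrays, with S-1 RNA in Cy3 on arrays 1 and 2 and in Cy5 on array 3. S-1 is a single line, and its constructs, its selection drugs and the inhibitor given to the other cells differed together. Their parts in a ratio cannot be told apart.

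Every value below is a log2 ratio with S-1 on top and DAPT-treated CHO below, where 0 is no difference and 1 is a doubling. Levels in either line alone cannot be read from it, and fewer cells with a transcript and less of it per cell cannot be told apart. Means are given with their SD over 3 arrays (n = 3), and a spot or gene was called higher or lower when limma's adjusted p fell under 0.005. The deposited table does not state its direction. It was taken from the transfected Psenen (2.84, 3.11 and 3.33 on arrays 1, 2 and 3) and Aph1a (1.85, 2.17 and 2.04), which lie on the positive side on every array, and from the direction of the changed clones that the study lists. Ncstn, whose product nicastrin was also transfected, had 0.33, 0.15 and 0.64 and was not called (adjusted p = 0.0352).

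The array has 32 print-tip blocks. By the first letter of the clone identifiers at each position, 133 member spots lay at positions of H clones and 6 at positions of P clones. The other 9 lay among 480 spots near the end of the blocks. No changed clone of the study's lists could be placed at those positions, and they are called unlisted. They stood apart as a class: 78.8% of all unlisted spots were called higher in S-1, with a median log2 ratio of 1.56, against 6.76% of all H spots, with a median of 0.00. Array 3 also stood apart. Over the H spots of the members, which are not independent replicates, arrays 1 and 2 correlated with Pearson's r of 0.92, while array 3 reached an r of 0.57 with array 1 and of 0.60 with array 2. Of the member symbols, 94 of 100 are also symbols of annotated genes of the Chinese hamster, but the spotted sequences are those of mouse.

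Most of the sorting machinery was not called in either direction. Of 148 member spots, 129 were not called, 9 were higher and 10 were lower, where 9.68% of all tested spots were higher and 8.52% lower. The members' median was −0.02, beside 0.01 over all tested spots. The directions were split by kind of position: all 10 lower spots were H spots, and 6 of the 9 higher spots were unlisted ones. Among the 133 H spots of the members, 2 were higher and 10 (7.52%) were lower, where 6.76% and 8.52% of all H spots were, and their log2 ratios ran between −0.76 and 0.73. None of them reached a 2-fold difference. Counts depended on single arrays: without array 1 there were 7 higher and 2 lower member spots, without array 2 there were 4 and 0, and without array 3 there were 20 and 30.

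**Figure D1:**
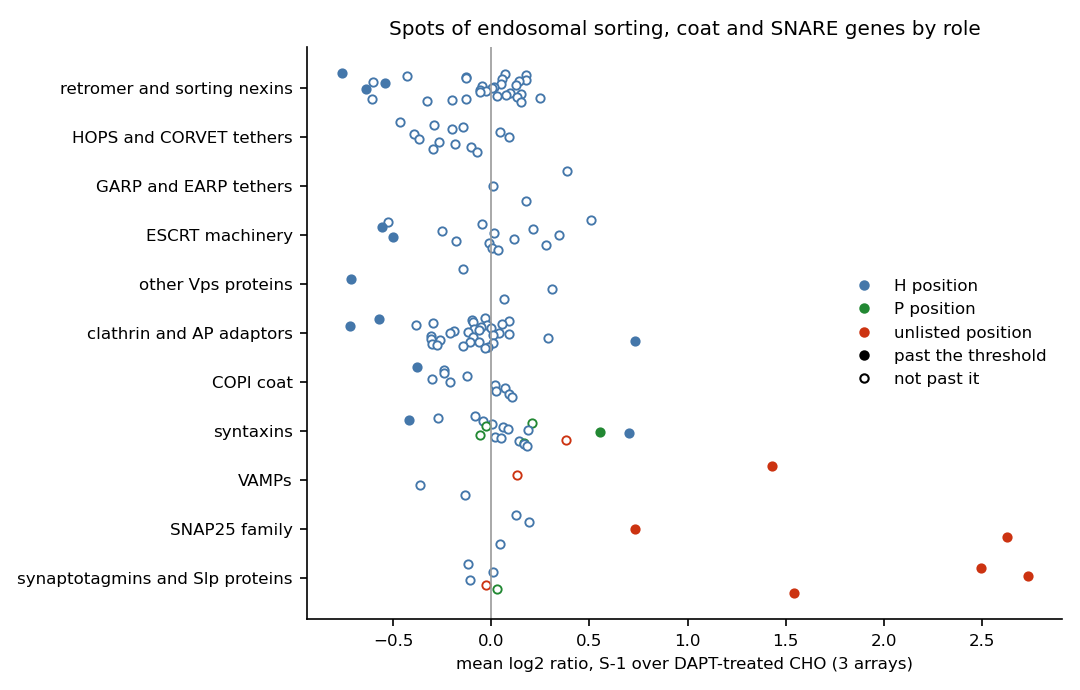
The log2 ratio (S-1 over DAPT-treated CHO, mean of 3 arrays, x axis) at each of the 148 member spots, by role from top to bottom. Colours mark the kind of array position and filled points the called spots; H spots keep between −0.76 and 0.73, and the 5 spots past a 2-fold difference are all at unlisted positions.

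Retromer and the sorting nexins were represented by 31 spots of 22 genes, all at H positions. Of these, 3 spots (9.68%) were lower, each of a different nexin, and none was higher. The lower share is near that of all H spots, of which 8.52% were lower and 6.76% higher. Snx10, a small nexin of endosomes and of osteoclasts, had −0.95, −0.64 and −0.70 on the 3 arrays, a mean of −0.76 ± 0.17 (1.70-fold lower in S-1, adjusted p = 0.00148). Snx4, which recycles the transferrin receptor and serves autophagy, had −0.68, −0.71 and −0.52, a mean of −0.64 ± 0.10 (1.56-fold lower, adjusted p = 0.00116). Snx27, the nexin whose PDZ domain hands receptors to retromer for return to the surface, had −0.49, −0.56 and −0.58, a mean of −0.54 ± 0.05 (1.46-fold lower, adjusted p = 0.00105). Each of these lay below −0.45 on every array. Snx22 came close in size (−0.60 ± 0.26), but its value on array 3 was −0.89 against −0.40 and −0.52 on arrays 1 and 2, and it was not called (adjusted p = 0.00861).

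The core of retromer, the trimer that selects cargo, was not called. Vps35, its largest subunit, had −0.57, −0.23 and −0.19, Vps29 averaged −0.20 ± 0.14, and the 3 spots of Vps26a averaged 0.03, 0.13 and 0.25. Nor were the nexins that form tubules with retromer: Snx2, Snx5 and Snx6 lay between −0.06 and 0.18 over 5 spots. Retriever, a relative of retromer, had 1 spot of Vps26c at −0.61 ± 0.23 (adjusted p = 0.00652), while a second spot of Vps26c was at −0.13 and Vps35l at 0.15. The retromer subunits were thus not called in this fit, although some of their spots were once the dye was fitted.

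The tethers lay on opposite sides of 0 without reaching the threshold, which several of them passed only with the dye in the fit. For HOPS and CORVET, which tether late and early endosomes, 0 of 13 spots were called and 11 lay below 0, with a median of −0.20. Across all H spots, 7607 of 15360 lay below 0. Vps11, a subunit common to both complexes, was the furthest from 0 at −0.47 ± 0.21 (adjusted p = 0.0118), with −0.71 on array 3 and −0.31 and −0.38 on the others. Its second spot averaged −0.29. Vps41, a HOPS subunit with 4 spots, averaged −0.37, −0.27, −0.19 and −0.11 on them. Vps39, also of HOPS, was at −0.39 and 0.09, and Vps8, of CORVET, at −0.30 and −0.07. For GARP and EARP, which tether vesicles that arrive at the trans-Golgi network and at recycling endosomes, all 3 spots lay above 0 and none was called. Vps50, the subunit that marks EARP, was at 0.39 ± 0.11 (adjusted p = 0.00611), Vps54, the one that marks GARP, at 0.17 ± 0.18, and Vps51, which both hold, at 0.01 ± 0.19.

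Among 15 spots of 13 ESCRT genes, 2 were lower and none was higher, where 8.52% and 6.76% of all H spots were. Both lower spots were in ESCRT-III, whose subunits polymerise to cut the neck of the inward bud. Chmp7, an ESCRT-III relative that also acts at the nuclear envelope, had −0.45, −0.49 and −0.57, a mean of −0.50 ± 0.06 (1.42-fold lower in S-1, adjusted p = 0.00148). Chmp3 had −0.49, −0.70 and −0.48 at one spot, a mean of −0.56 ± 0.13 (adjusted p = 0.00241), but 0.23, 0.25 and 0.15 at its other spot. Both Chmp3 spots are H spots and their array values do not overlap, so the gene has no single direction here. Chmp2b showed the same kind of split, with −0.53 ± 0.18 (adjusted p = 0.00583) and −0.05 ± 0.05, neither of them called.

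At the other end, Chmp2a was at 0.71, 0.56 and 0.24, a mean of 0.51 ± 0.24 that was not called (adjusted p = 0.0127), and Chmp6 at 0.45, 0.55 and 0.03. Both were lowest on array 3. The subunits of ESCRT-I and ESCRT-II, which bind ubiquitinated cargo and start the bud, lay between −0.18 (Vps28) and 0.28 (Vps37c). Vps4a and Vps4b, the ATPases that take ESCRT-III apart, were at 0.00 ± 0.17 and 0.03 ± 0.27 and were not called. These means join values on both sides of 0: −0.11, 0.19 and −0.08 for Vps4a, and −0.13, −0.12 and 0.35 for Vps4b.

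Of 4 further Vps genes, Vps13b was lower. Its product, a large lipid transfer protein at the Golgi and a gene of Cohen syndrome in humans, had −0.92, −0.75 and −0.47, a mean of −0.71 ± 0.23 (1.64-fold lower in S-1, adjusted p = 0.0038), and array 3 was the closest to 0. Vps13a, its relative, was at −0.15 ± 0.10. Vps45, the Sec1/Munc18 protein that guides endosomal syntaxins, had nearly equal values on each array (0.34, 0.30 and 0.29). It lay just outside the threshold as a spot (adjusted p = 0.00508 over spots) and just inside it as a gene value (adjusted p = 0.00387 over genes). Vps72, which the naming rule also brings in, belongs to a chromatin remodelling complex and was at 0.06 ± 0.07.

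Clathrin and its adaptors gave 1 higher and 2 lower spots out of 34, with 26 of the 34 below 0. Of all 15360 H spots, 7607 lay below 0, and 6.76% were higher and 8.52% lower. The AP adaptors alone had 26 spots, 19 of them below 0, and held all 3 called ones. Ap2a1, an α subunit of AP2, the adaptor of endocytosis at the plasma membrane, had −0.64, −0.66 and −0.86, a mean of −0.72 ± 0.12 (1.65-fold lower in S-1, adjusted p = 0.00102). All 8 spots of AP2 lay below 0, but the other 7 were not called and were smaller: Ap2s1 was at −0.21 on every array, and both spots of Ap2a2, the other α subunit, were at −0.06 and 0.00. Ap1g1, the γ subunit of AP1, which works at the trans-Golgi network and endosomes, had −0.72, −0.60 and −0.40 at one spot (mean −0.58 ± 0.17, 1.49-fold lower, adjusted p = 0.00353). At its other spot it had 0.00, 0.08 and −0.39. As a gene value over both spots Ap1g1 was lower, at −0.34.

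Ap4s1 went the other way. This small subunit of AP4, the adaptor that exports the autophagy protein ATG9A out of the trans-Golgi network, had 0.67, 0.89 and 0.64, a mean of 0.73 ± 0.14 (1.66-fold higher in S-1, adjusted p = 0.00126), the highest of all 133 member H spots. It was the only AP4 subunit measured under a single name. AP3, which sorts to lysosomes and related organelles, had 0 of 8 spots called, the furthest from 0 being Ap3d1 at −0.31 ± 0.10 and Ap3s1 at −0.31 ± 0.24. The chains of clathrin itself were not called at any of 7 spots. The 3 spots of Cltc, the heavy chain, averaged −0.28, −0.14 and −0.02 and were lowest on array 1 each time. Ap1s2, a small subunit of AP1, had −0.56, −0.53 and −0.07 and was not called (adjusted p = 0.0433).

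In COPI, the coat that returns vesicles within the Golgi and to the endoplasmic reticulum, 1 of 11 spots was lower. Over all H spots, 8.52% were lower. Copa, the α subunit, had −0.45, −0.35 and −0.33, a mean of −0.38 ± 0.06 (1.30-fold lower in S-1, adjusted p = 0.00354). One spot of Copg1 lay just outside the threshold at −0.30 ± 0.03 (adjusted p = 0.00544), its second spot at −0.21 ± 0.15, and Copb2 at −0.24 ± 0.14. Copg2, the other γ subunit, was at 0.02 and 0.07.

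**Figure D2:**
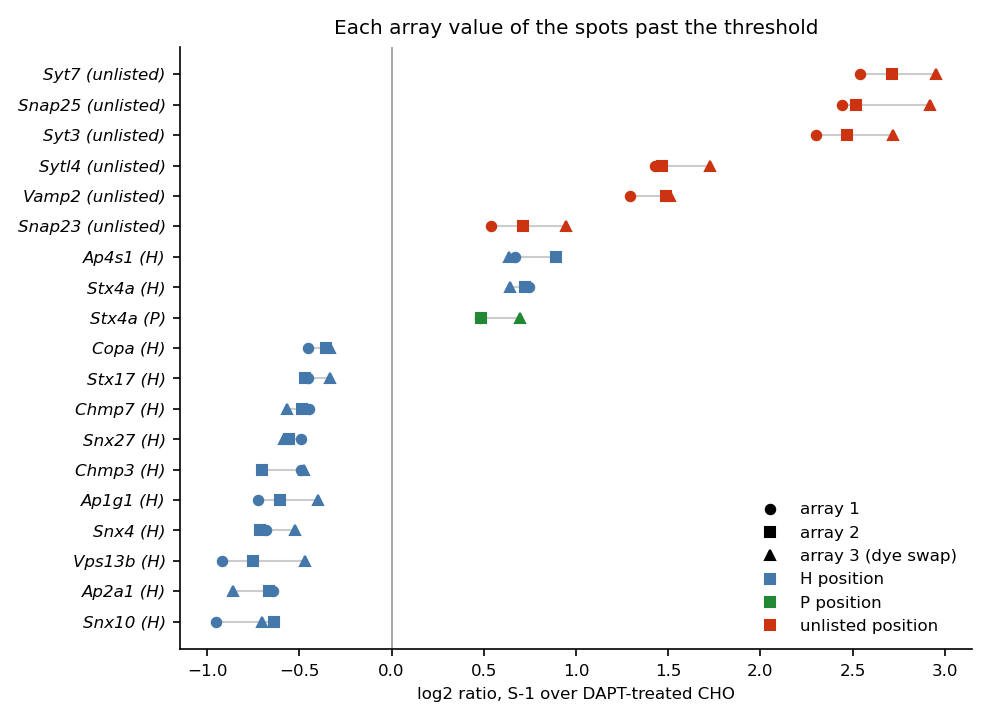
The log2 ratio (S-1 over DAPT-treated CHO, x axis) on each array for the 19 called member spots, ordered by their mean, with the kind of array position in brackets and in colour. No called spot crosses 0; the lower spots run between −0.95 and −0.33, and the highest 3 spots lie above 2 on every array.

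Several coat subunits differed between arrays 1 and 2 and array 3, the array with the dyes swapped. Cope, the ε subunit of COPI, had 0.00, −0.02 and −0.70 at one spot and 0.12, 0.05 and −0.54 at the other. Copz1, the ζ subunit, had 0.05, 0.17 and −0.14, then 0.24, 0.24 and −0.21, then 0.29, 0.29 and −0.26 over its 3 spots, and Ap1s1, the small subunit of AP1, had 0.32, 0.17 and −0.56. Cltb, a clathrin light chain, was at −0.06, −0.12 and −0.72. For these genes, array 3 was the low one at every spot, and for Copz1 and Ap1s1 a mean near 0 stands for values on both sides of it.

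Of the 45 spots in the clathrin, adaptor and COPI groups, 27 were lower on array 3 than on both other arrays, against 43.0% of all H spots. Over all members, 30 of 148 spots had on array 3 the sign opposite to that on arrays 1 and 2, 22 of them with array 3 negative, where 17.0% of all tested spots had an opposite sign and 1611 of those 2870 were negative on array 3. All 3 arrays had 1 sign at 81 of the 133 H spots of the members (60.9%), where 66.4% of all H spots did. None of the 19 called spots changed sign. Whether the dye, the array or the culture set array 3 apart cannot be told apart with a single swapped array.

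With the dye as a second coefficient, which leaves 1 residual degree of freedom, many more spots passed, among the members and on the whole array: 14 member H spots were higher and 40 lower, where 17.6% and 20.2% of all H spots were. In that fit 8 of the 13 HOPS and CORVET spots were lower, among them both spots of Vps11 and 3 of the 4 of Vps41, and Vps50 and Vps54 were higher. Vps35 and 1 spot of Vps26c were lower and 2 of the 3 Vps26a spots were higher. Of these Vps26a spots, 1 was above 0 on array 3 alone (−0.03, −0.02 and 0.44). Of the 34 clathrin and adaptor spots 11 were lower and 2 higher, and of the 11 COPI spots 5 were lower. Among these 5, a Cope spot was below 0 on array 3 alone (0.12, 0.05 and −0.54). With a single swapped array this fit meets array 3 exactly, and its residual is only the gap between arrays 1 and 2. A call in it can therefore rest on array 3.

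**Figure D3:**
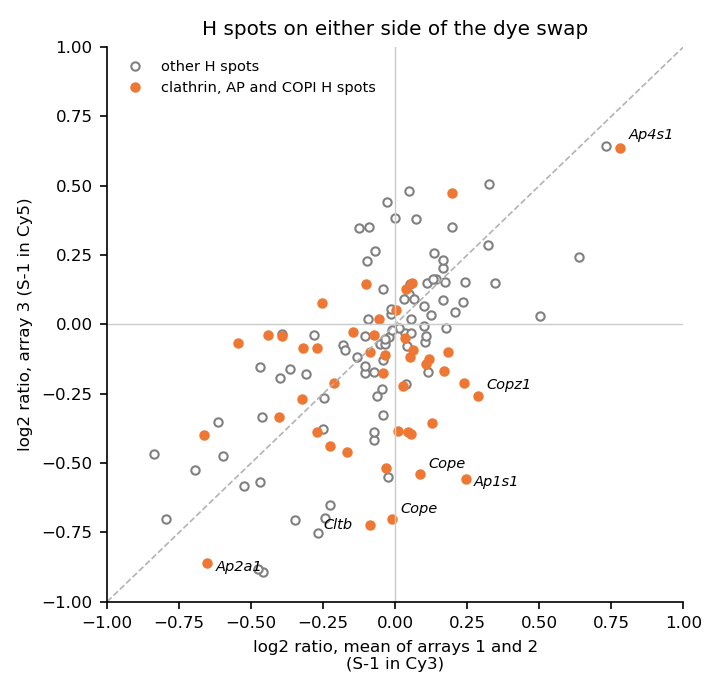
The log2 ratio on array 3, where S-1 RNA carried Cy5 (y axis), against the mean of arrays 1 and 2, where it carried Cy3 (x axis), for the 133 member H spots. The clathrin, adaptor and COPI spots are filled; Cope, Copz1, Ap1s1 and Cltb lie well below the dashed line of equal values, and Ap4s1 and Ap2a1 lie nearer to it.

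SNARE genes made up 29 spots of 19 genes, with 5 spots higher and 1 lower, where 9.68% and 8.52% of all tested spots were. Of the 5 higher spots, those of Vamp2, Snap25 and Snap23 were at unlisted positions, where 78.8% of all spots were higher. The syntaxins held the only member gene with several spots that was called at every one of them. Stx4a, the syntaxin of the plasma membrane in constitutive and insulin-driven fusion, had 0.74, 0.72 and 0.64 at its H spot (mean 0.70 ± 0.05, 1.63-fold higher in S-1, adjusted p = 0.000513) and 0.48, 0.49 and 0.70 at its P spot (mean 0.55 ± 0.12, 1.47-fold higher, adjusted p = 0.00235). Neither spot is at an unlisted position, and all 6 values lie above 0.47. Higher calls were also more common at P positions, with 19.3% of all P spots against 6.76% of all H spots. Stx17, the SNARE that fuses autophagosomes with lysosomes, was the lower one, at −0.46, −0.47 and −0.33, a mean of −0.42 ± 0.07 (1.34-fold lower, adjusted p = 0.00295). The endosomal syntaxins were not called: Stx7 was at 0.14 and 0.16, Stx8 at 0.17 and 0.18, Stx12 at −0.08, Stx16 at −0.27 and Stx6 at 0.05 and 0.38.

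The high values of the fusion machinery came from unlisted positions. Vamp2, the VAMP of synaptic and secretory vesicles, had 1.29, 1.49 and 1.51, a mean of 1.43 ± 0.12 (2.70-fold higher in S-1, adjusted p = 0.000148). Snap25, its partner at the plasma membrane of neurons and endocrine cells, had 2.44, 2.52 and 2.92, a mean of 2.63 ± 0.26 (6.18-fold, adjusted p = 0.000134). Syt3, a calcium sensor, had 2.30, 2.47 and 2.72, a mean of 2.50 ± 0.21 (5.65-fold, adjusted p = 0.000123). These 3 genes have no spot elsewhere on the array under a single name, so their values have no second spot to stand against. Among all 480 unlisted spots, 125 had a mean above 2.4 and the highest was at 2.85, so the values of Snap25 and Syt3 lie within a range that many genes at these positions share. Several relatives were not called: Vamp3 was at 0.13 at an unlisted position, and at H positions Vamp4 was at −0.37, Vamp8 at −0.14, Snap29 at 0.04 and Syt11 at −0.12.

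Of the 4 members with spots at both kinds of position, 3 were called at an unlisted spot and at none of their H or P spots. Syt7, a calcium sensor of lysosome exocytosis, had 2.54, 2.71 and 2.95 at its unlisted spot (mean 2.73 ± 0.21, 6.66-fold higher, adjusted p = 0.000117), and −0.04, 0.01 and 0.06 at its H spot. Snap23, the widely expressed relative of Snap25, had 0.54, 0.71 and 0.95 at its unlisted spot (mean 0.73 ± 0.20, adjusted p = 0.00262) and averaged 0.13 and 0.19 at its 2 H spots, neither of them called. Sytl4, the granule-docking protein granuphilin, had 1.43, 1.47 and 1.73 at one unlisted spot (mean 1.54 ± 0.16, 2.91-fold higher, adjusted p = 0.000184). At its other 3 spots, a second unlisted one among them, Sytl4 averaged between −0.11 and 0.03.

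Stx6 had the smallest gap of these, at 0.38 ± 0.13 for the unlisted spot (adjusted p = 0.00823) and 0.05 ± 0.04 for the H spot. The unlisted spots were the higher ones on every array, with differences from the gene's other spots of 2.59, 2.70 and 2.90 for Syt7, 0.48, 0.72 and 0.51 for Snap23, 0.73, 0.78 and 0.89 for Sytl4 with its unlisted spots averaged, and 0.20, 0.43 and 0.35 for Stx6. Over the 243 genes with spots at both kinds of position, the unlisted value was the higher one in 230, with a median of 1.07 at unlisted and −0.02 at other positions. What the unlisted spots hold was not tested.

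**Figure D4:**
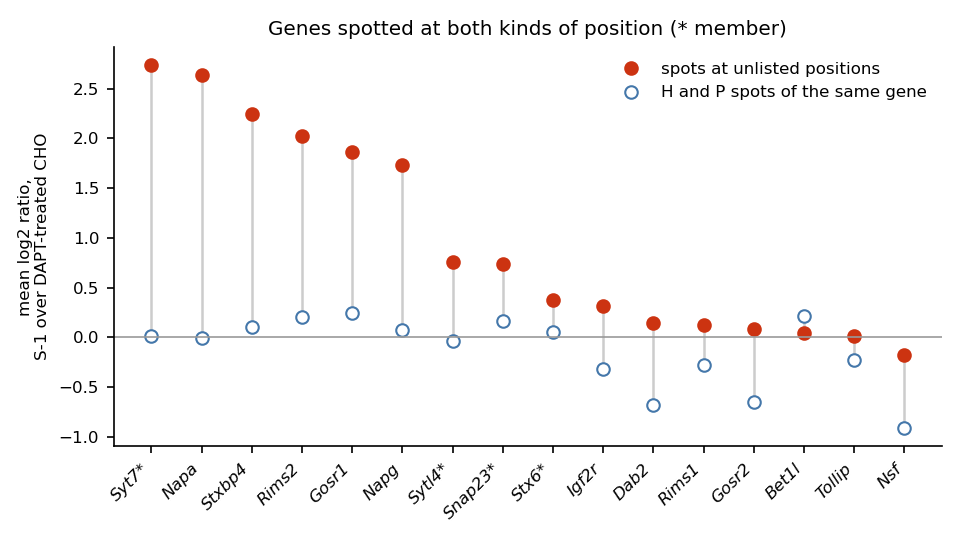
Mean log2 ratio (S-1 over DAPT-treated CHO, y axis) at unlisted positions (filled) and at H and P positions (open) for the 16 member and other trafficking genes that have spots at both. For Syt7, Napa, Stxbp4, Rims2, Gosr1 and Napg the unlisted value is above 1.7 while the mean of the gene's other spots stays below 0.25; for Bet1l the order is reversed.

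Gene values, the mean over all spots of a gene on each array, gave 8 higher and 9 lower genes out of 100, where 12.4% of all genes were higher and 10.3% lower. The higher ones were Ap4s1, Stx4a, Vps45, Vamp2, Snap25, Syt3, Syt7 (1.37) and Sytl4 (0.36). With the unlisted spots left out, 3 genes were higher, namely Ap4s1, Stx4a and Vps45. Syt7 then stood at 0.01 and Sytl4 at −0.04. The 9 lower genes were Snx10, Ap2a1, Vps13b, Snx4, Snx27, Chmp7, Stx17, Copa and Ap1g1, and this count was 9 again without the unlisted spots. Without array 1 the counts were 4 higher and 1 lower, without array 2 they were 4 and 0, and without array 3 they were 14 and 24.

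Genes that work beside these members were taken from 7 lists, 119 genes of which are on the array under a single name. These counts rested on single arrays too: over all 7 lists 17 genes were lower, against 3 without array 1, 1 without array 2 and 36 without array 3. Of 12 genes of the COPII coat, which carries cargo out of the endoplasmic reticulum, 6 were lower and 1 higher, where 10.3% of all genes were lower, with a median of −0.19. Sec24c (−0.63 ± 0.09) and Sec24d (−0.60 ± 0.04), the cargo-binding subunits, and Sec31a (−0.54 ± 0.14), of the outer cage, were lower. So were Sec16a (−0.48), which organises the exit sites, Sec23ip (−0.42) and the GTPase Sar1a (−0.31). Sec13, the partner of Sec31 in the cage and also a nuclear pore protein, was higher at 0.60 ± 0.10, and Sec23b was at 0.50 ± 0.19 without being called. Paralogs thus lay on both sides of 0, with Sec24b at 0.20 and Sec24a at −0.07. The Sec24b value joins an H spot at 0.04, not called, and one at 0.37, which was higher (adjusted p = 0.00328).

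Of 16 sorting receptors, 6 were lower and none was higher, where 10.3% of all genes were lower and 12.4% higher. Their median was −0.30. The lower ones handle cargo between the endoplasmic reticulum and the Golgi: Tmed9 had −0.77, −0.86 and −1.07 (mean −0.90 ± 0.15), Lman2 −0.68 ± 0.10, Kdelr2, the receptor that retrieves KDEL proteins, −0.67 ± 0.15, Lman1 −0.43 ± 0.06, Tmed10, a p24 protein also known to bind γ-secretase, −0.35 ± 0.06 and Bcap31 −0.35 ± 0.04. Other Tmed genes and Surf4 were not called and lay on both sides of 0. Tmed4 was at −0.32, Tmed7 at −0.32, Surf4 at −0.29, Tmed2 at −0.07, Tmed5 at 0.10 and Tmed3 at 0.15. As gene values, the endosomal receptors were not called: M6pr was at 0.01 ± 0.08 and Sorl1, the sorting receptor of the amyloid precursor protein, at −0.08 ± 0.01. Igf2r, at −0.16 ± 0.05, joins spots that differ: one H spot had −0.98, −0.91 and −0.85 and was lower (adjusted p = 0.000269), its other H spots were at −0.04 and −0.01, and its unlisted spot was at 0.31. Without the unlisted spot the gene value of Igf2r was −0.32, which was not called either.

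The counts of the next lists stand beside 12.4% higher and 10.3% lower over all genes. Among 23 tethering genes 3 were lower (Cog4 at −0.87, Trappc9 at −0.55 and Uso1 at −0.39, the mean of spots at −0.82 and 0.05) and Trappc6b was higher at 0.52. Clathrin-associated proteins gave 2 lower, Eps15 (−0.61 ± 0.11) and Dab2 (−0.47 ± 0.04), both of which bind AP2 at the plasma membrane, and 2 higher out of 29, Dnm2 (0.97) and Aftph (0.31). Aftph rests on 1 of 3 H spots, at 0.79 beside 0.19 and −0.07. The Dnm2 value comes from an unlisted position. Of 12 other ESCRT genes, Pdcd6 (0.47 ± 0.06) and Vta1 (0.34 ± 0.02), a cofactor of VPS4, were higher and none was lower. Vta1 was called at its H spot at 0.39 and not at the one at 0.30. Of 12 other SNAREs, Bnip1 (0.49 ± 0.16) and Gosr1 (1.05) were higher, and Gosr1 stood at 0.24 at its H spot. Bnip1 was called at its H spot at 0.71 and not at the one at 0.27. Gosr2, a Golgi SNARE, was lower at both of its H spots (−0.68 and −0.62, adjusted p = 0.00347 and 0.0012) and at 0.08 at its unlisted spot. Its gene value was −0.40 and not called, and without the unlisted spot it was −0.65 and lower.

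The SNARE regulators gave the largest count and the one that rested most on unlisted positions. Of 15 genes, 8 were higher and none was lower, with a median of 0.81. Over all gene values, 12.4% were higher and 10.3% lower. An unlisted spot is present for 11 of the 15 genes, and 78.8% of all unlisted spots were higher. The 8 higher genes were Napa, Napb and Napg, the SNAPs that recruit NSF, and the syntaxin-binding Stxbp3 and Stxbp4. Cplx1, Unc13b and Rims2 of regulated secretion were the others. Each of the 8 has an unlisted spot. At its unlisted spot Napa was at 2.63 and at its H spot at 0.00, and Stxbp4 was at 2.24 and 0.10. Without the unlisted spots 10 of the 15 genes could be measured, none of their gene values was called in either direction, and their median was −0.01. Single spots outside the unlisted positions were called, however: 1 of the 2 H spots of Rims2 was higher at 0.63 (the other was at −0.21), the P spot of Rims1 was lower at −0.62 (its H spot was at 0.06), and 1 of the 2 H spots of Nsf was lower at −0.98 (the other, at −0.84, was not called). Nsf, the ATPase that takes used SNARE complexes apart, was at −0.18 at its unlisted spot. Over all 7 lists 16 genes were higher and 17 lower, and without the unlisted spots 5 and 18.

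**Figure D5:**
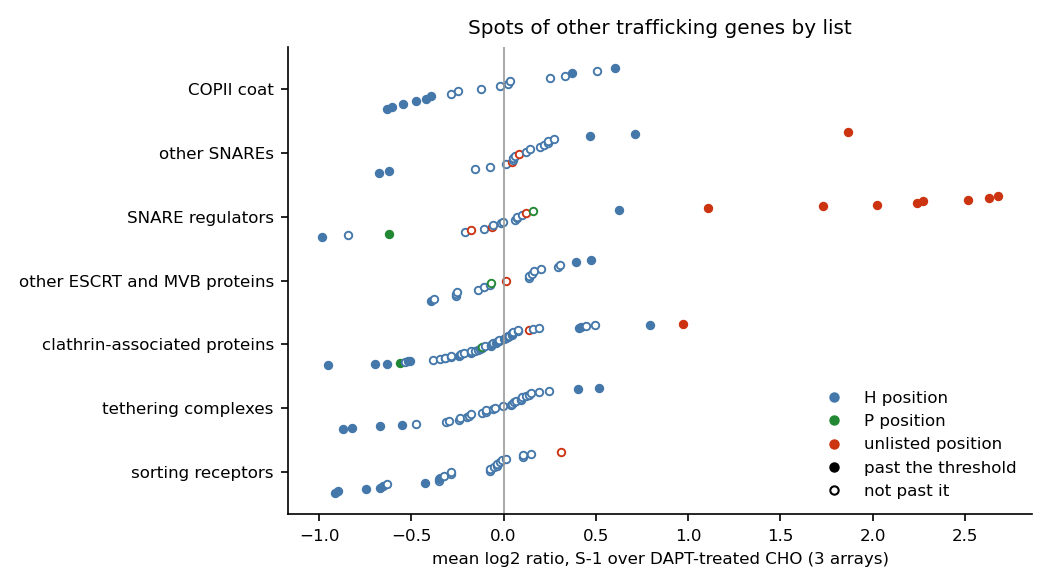
The log2 ratio (S-1 over DAPT-treated CHO, mean of 3 arrays, x axis) at each spot of the 119 genes of the other trafficking lists, with colours for the kind of array position and filled points for spots called over all tested spots. Spots above 1 are all at unlisted positions, most of them among the SNARE regulators, and the COPII coat and the sorting receptors hold lower H spots.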

How the data were processed

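RNA of S-1 cells and of DAPT-treated CHO cells was compared on 3 two-colour arrays with 1 culture of each per array. Per the study's methods, the authors scanned the slides, read them with GenePix Pro, and deposited log2 ratios that had been normalised with lowess in each print-tip group, the background not being subtracted. Intensities were not used here, so the precision is limited by the number of arrays. No value was missing and no further normalisation was applied.

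Gene names came from the array's platform annotation, and spots with several names were left out of the members. At 23 positions of each block no spot has a name. Their 736 spots, whose ratios turned round with the dye swap (r = −0.96 between arrays 1 and 3, but 0.99 between arrays 1 and 2), were taken as controls and left out. A single coefficient was fitted against 0 for each spot and each gene value by limma 3.58.1 (R 4.3.3), with Benjamini-Hochberg adjustment over all tested spots or genes and a threshold of 0.005. The SD over the 3 arrays is printed beside limma's p. An exact sign test of 3 arrays could not pass this threshold. Clone collections were read off the positions of the changed clones in the study's lists, matched by their fold on the study's scale. On that scale a fold is 2 times the ratio used here, or 2 times its inverse for lower clones. All 2658 listed clones could be paired to spots by fold on it, within a relative tolerance of 1e-05. For Psenen, Aph1a and Ncstn the study therefore prints larger folds than the ratios of 8.5, 4.06 and 1.30 found here, from the same values. Tables and figures were made with Python 3.11.15, NumPy 2.4.6, pandas 2.3.3 and Matplotlib 3.10.9.

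Named are every called member spot, the 4 members of each role furthest from 0, every gene with several spots of which at least 1 was called, and the transfected genes. Other genes in the text were named after their values were seen. The members and lists were chosen with earlier results of these data known. Alternatives were the threshold, centring, scaling, quantile normalisation, array weights, a dye coefficient, robust empirical Bayes, the control spots, the clone collections, the median over spots and each array left out.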

Additional observations from a re-analysis of the deposited data

How the results depend on the processing

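None of the 19 called member spots reversed under any alternative that measured it, but all 19 had 1 sign on the 3 arrays. Leaving out an array, weighting the arrays or fitting the dye could therefore not reverse them. All 19 were called again under array weights, centring and scaling. Calls were lost at 10 of them without array 1, at 15 without array 2 and at 12 with the control spots included. At a threshold of 0.05 the counts of higher and lower were 20 and 30 for member spots, 16 and 26 for member gene values and 25 and 37 for the other trafficking lists. With the dye as a coefficient they were 23 and 40, 15 and 30, and 26 and 37. Array weights, which gave array 3 a weight of 0.36 against 1.48 and 1.88, made 16 member spots higher and 26 lower, 23 member gene values lower and 32 list genes lower. With the control spots included, 1 member spot was lower (Snx27). With H clones alone, 3 member spots, 3 member gene values and 5 list genes were higher, and the same counts (3, 3 and 5) were higher with the unlisted spots left out. Leaving out 1 array in turn gave between 4 and 20 higher and between 0 and 30 lower member spots, between 4 and 14 and between 0 and 24 gene values, and between 8 and 23 and between 1 and 36 list genes. Without array 2, the called spots left were those of Vamp2, Snap25, Syt3 and Syt7, all unlisted, and without array 1 the lower spots left were those of Snx10 and Ap2a1. The fit of the ratios against 0 is itself a paired analysis, because each array pairs its 2 cultures in a ratio and there is 1 group of arrays. The causes of these shifts were not tested.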

Other observations

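Some clones carry the name of a gene of this machinery together with that of another gene, and so belong to no count above. A clone named for both Vamp3 and Gm38529 had −0.50, −0.42 and −0.58 at an H position and was lower in S-1 (mean −0.50 ± 0.08, limma adjusted p = 0.0019), while the spot named Vamp3 alone, at an unlisted position, was at 0.13 ± 0.06 and was not called. A clone named for Syt1, the calcium sensor of synaptic vesicles, and Gm5136 was at 2.60, 2.72 and 3.00 at an unlisted position and at 0.28, 0.13 and 0.03 at an H position. This is the same order as for Syt7. The other 6 such clones, among them those of Chmp1b, Snx14 and Sytl3, lay between −0.34 and 0.21 and were not called.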
